A study of Mus musculus with 2 samples.

Results

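Mir7b, Mir375, Mir7-2 and Mir7-1 were followed in tissue labelled layer of hippocampus from male mice of the B6CASTF1/J strain at 2 months of age, a first-generation hybrid of the C57BL/6J and CAST/EiJ strains. The genes were taken by symbol in GENCODE annotation M21, and all 4 were found among the 2202 miRNA genes of the deposited tables. MicroRNA-seq, which sequences short RNAs, had been run on 2 libraries of 1 group, with no treatment and no second group. The labels number them as biological replicates 1 and 2 from separate biosamples under a single donor entry, so their spread may not cover the difference between animals. Replicate 1 had 2322520 reads counted on miRNA genes and replicate 2 had 3414105, and levels are given as CPM, counts scaled to a total of 1000000 of these reads per library. Since this was bulk tissue, fewer cells of a type and less RNA per cell cannot be told apart.

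MicroRNAs are cut from hairpin precursors, whose 5p and 3p arms can each yield a mature strand. The seed, the stretch near the 5′ end of the mature strand, selects target messenger RNAs. The miR-7 family is known for high levels in neurons and neuroendocrine cells, including the hypothalamus, pituitary and pancreatic islets. Mir375 is best known from islet and pituitary cells, where it acts on hormone secretion. In the brain miR-7 belongs to a circuit of noncoding RNAs. The circular RNA Cdr1as carries many miR-7 sites, the long noncoding RNA Cyrano directs the decay of miR-7, and miR-671 directs the cleavage of Cdr1as.

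The mature sequences are shown because the sequence decides which reads of this family can be assigned to a gene. They come from RefSeq on build GRCm38.p6, which held the 4 hairpins and 7 mature entries for them. They are written 5′ to 3′ with the seed, bases 2 to 8, in capitals. The 5p arms of the miR-7 genes share a single seed.
miR-7a-5p (Mir7-1 and Mir7-2): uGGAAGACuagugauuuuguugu
miR-7b-5p (Mir7b): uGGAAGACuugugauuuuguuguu
miR-7b-3p (Mir7b): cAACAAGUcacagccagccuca
miR-7a-2-3p (Mir7-2): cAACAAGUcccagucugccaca
miR-7a-1-3p (Mir7-1): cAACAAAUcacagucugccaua
miR-375-5p (Mir375): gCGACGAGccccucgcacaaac

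Counting from 1 at the 5′ end, miR-7a-5p and miR-7b-5p differed by A10U alone over the 23 bases they could be compared on, a position outside the seed. No other mature entry of the table had the seed GGAAGAC. The 3p arms differed more. From miR-7a-1-3p to miR-7a-2-3p there were 3 substitutions, A7G, A10C and U21C, and the first of them lies in the seed. From miR-7a-2-3p to miR-7b-3p there were 4, C10A, U14C, U16A and A20U, all outside the seed. miR-7b-3p and miR-7a-2-3p therefore shared the seed AACAAGU, which no other entry had. The seed of miR-375-5p was found in no second entry. The reference used held no mature entry for miR-375-3p, so that arm is not shown, and its seed was not compared.

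The hairpins are shown to mark where reads of the family cannot be told apart. Capitals mark every base inside an 18-base window that also occurs in another of the 2202 hairpins.
Mir7b, chr17:56242988-56243098, plus strand: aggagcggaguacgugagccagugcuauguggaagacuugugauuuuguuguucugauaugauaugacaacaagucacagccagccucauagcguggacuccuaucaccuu
Mir7-2, chr7:78888277-78888373, plus strand: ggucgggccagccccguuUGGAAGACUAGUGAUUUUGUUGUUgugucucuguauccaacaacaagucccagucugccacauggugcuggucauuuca
Mir7-1, chr13:58392779-58392886, minus strand: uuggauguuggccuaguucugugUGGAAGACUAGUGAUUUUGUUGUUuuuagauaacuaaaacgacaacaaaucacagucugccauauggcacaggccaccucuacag
Mir375, chr1:74900658-74900721, minus strand: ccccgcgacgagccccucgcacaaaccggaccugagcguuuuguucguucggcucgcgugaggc

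Mir7-2 and Mir7-1 shared an unbroken run of 24 bases, which holds the whole of miR-7a-5p and 1 base beyond it. A read lying within that run matches both genes equally. Of the 18-base windows, 7 of 80 in Mir7-2 and 7 of 91 in Mir7-1 were shared, and no 25-base window was. The 3p arms of both genes matched only their own hairpin, as did every listed arm of Mir7b and Mir375. Sharing such a window was common, at 93 of the 401 detected miRNA genes (23.2%). Detected means 2 CPM or more in both libraries. Outside the miRNA genes, the GENCODE transcripts on either strand held 1 of the 94 windows of Mir7b, in Zfp704, and none of the other 3 genes. Copies in introns or between genes were not searched.

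**Figure D1:**
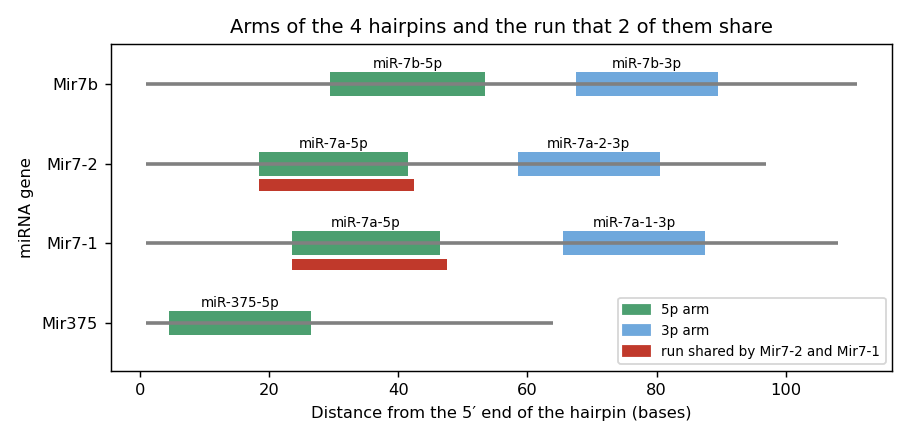
Map of the 4 hairpins along their length in bases from the 5′ end (grey line), with 5p arms in green, 3p arms in blue and the run shared by Mir7-2 and Mir7-1 in red. The 24-base run covers all of miR-7a-5p and reaches neither 3p arm. The 3p arm of Mir375 is not drawn, as the reference held no entry for it.

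The tables leave multimapping reads out of every gene's count. These made up 42.6% of replicate 1 and 46.0% of replicate 2, and how many of them came from miR-7a was not measured. If reads were placed without mismatches, the counts of Mir7-2 and Mir7-1 rest on reads that reach beyond the shared run or lie elsewhere in the hairpin. Such counts leave out an unmeasured number of reads of these genes. How mismatches were treated is not given, so reads of a miR-7 gene may also have been counted on another. The arm from which each counted read came was not analysed here.

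Mir7-1 (ENSMUSG00000065434.1) lies in an intron of Hnrnpk, which encodes an RNA-binding protein, on the same strand. The other 3 genes overlap no other annotated gene. Mir7b (ENSMUSG00000065491.1) starts 183 bases beyond the noncoding gene AC026385.1 on the same strand. Mir375 (ENSMUSG00000065616.3) lies 1350 bases from Cfap65 and 7515 bases from Cryba2, and Mir7-2 (ENSMUSG00000065609.1) lies 7481 bases from Aen. Folded with RNAfold, each sequence formed a single hairpin loop. The minimum free energies were -46.8 kcal/mol for Mir7-1, -40.5 for Mir7-2, -35.0 for Mir7b and -26.8 for the shorter Mir375.

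Mir7b took most of the placed reads of the miR-7 family. It had 5212 counts in replicate 1 and 6186 in replicate 2. On the CPM scale these were 2244 (Wilson 95% interval 2184 to 2306) and 1812 (1767 to 1858), a level of 2028 ± 306 CPM (SD, n = 2). Its intervals did not overlap between the libraries, replicate 1 being the higher. How many detected genes had separate intervals was not counted, but 50.9% passed the test against counting error given below. Intervals here cover counting error only, since amplified reads are not independent molecules. Mir7b was the 60th most abundant of the listed genes by mean, and its level exceeded that of 85.0% of the detected ones.

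Mir7-2, the better counted of the miR-7a genes, had 614 counts in replicate 1 and 677 in replicate 2. Its levels were 264 CPM (Wilson 95% interval 244 to 286) and 198 CPM (184 to 214), or 231 ± 46.7 CPM (SD, n = 2), and it ranked 159th. Again the intervals were apart and replicate 1 was the higher. Mir7-1, the gene within Hnrnpk, had 247 counts in replicate 1 and 343 in replicate 2. Its levels were 106 CPM (93.9 to 120) and 100.5 CPM (90.4 to 112), or 103 ± 4.16 CPM (SD, n = 2), and it ranked 194th. Here the intervals overlapped.

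Mir375 had 552 counts in replicate 1 and 940 in replicate 2. The levels were 238 CPM (Wilson 95% interval 219 to 258) and 275 CPM (258 to 293), or 257 ± 26.6 CPM (SD, n = 2). The intervals overlapped only at their ends. Replicate 2 was the higher, the opposite of Mir7b and Mir7-2. Mir375 ranked 154th, above 61.6% of detected genes, and was well over the limit set by a count of 0, taken as 3 counts, or 1.29 CPM for replicate 1 and 0.879 CPM for replicate 2. None of the 4 genes had a read on the opposite strand in either library, so for them the strand-specific and unstranded counts were identical.

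**Figure D2:**
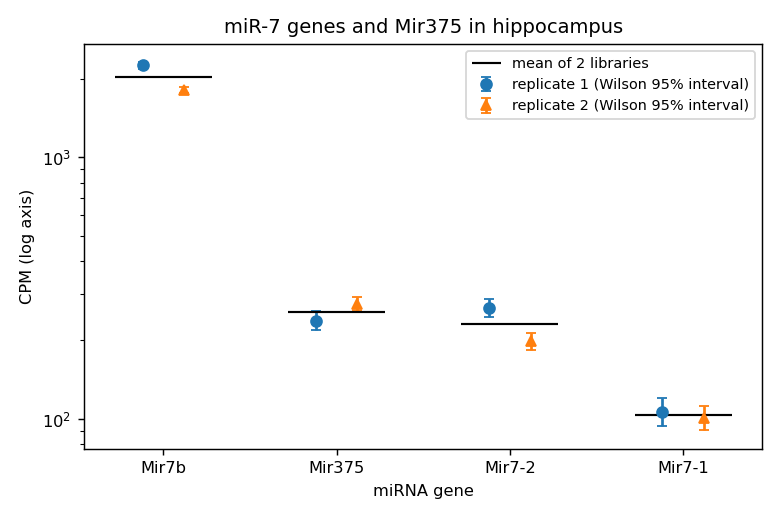
CPM on a log axis of Mir7b, Mir375, Mir7-2 and Mir7-1 in replicate 1 (blue circles) and replicate 2 (orange triangles), with Wilson 95% intervals and the mean of 2 libraries as a black line. Mir7b stands at 2028 CPM on average, Mir375 and Mir7-2 overlap at 257 and 231 CPM, and Mir7-1 is lowest at 103 CPM.

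In order of mean level, as placed reads gave it, the genes ran Mir7b, Mir375, Mir7-2 and Mir7-1. A ratio between genes was taken as beyond the replicate spread if both libraries gave it the same direction and the mean of its log2 was more than 2 SD from 0. It carries no p, as a two-sided sign-flip test of 2 libraries cannot go below 0.5. Mir7b exceeded Mir375 by 9.43-fold in replicate 1 and 6.58-fold in replicate 2, a mean log2 ratio of 2.98 ± 0.37 (SD, n = 2). It exceeded Mir7-2 by 8.48-fold and 9.13-fold, and Mir7-1 by 21.1-fold and 18.01-fold. All 3 ratios passed the rule. The multimapping loss enters the folds over Mir7-2 and Mir7-1, which are ratios of placed reads.

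Mir375 and Mir7-2 were the neighbours in this order that did not differ beyond their spread. Mir375 over Mir7-2 was 0.899-fold in replicate 1 (exact 95% interval 0.800 to 1.01) and 1.39-fold in replicate 2 (1.26 to 1.53), so their order turned between the libraries. Mir375 exceeded Mir7-1 by 2.23-fold and 2.74-fold, and Mir7-2 exceeded Mir7-1 by 2.48-fold and 1.97-fold, both passing the rule. The multimapping loss enters these ratios too, as Mir7-2 and Mir7-1 share the run that holds miR-7a-5p. Mir375 shared no 18-base window with another listed hairpin. The ratios therefore do not show that Mir375 was more abundant than miR-7a. These ratios are of counts, because a miRNA read spans an arm rather than the hairpin and the listed arms have 22 to 24 bases. Divided by hairpin length, a setting chosen after the values were seen, Mir375 lay above Mir7-2 in replicate 1 too, at 3714 and 2725 CPM per kb of hairpin, and the pair still failed the rule.

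**Figure D3:**
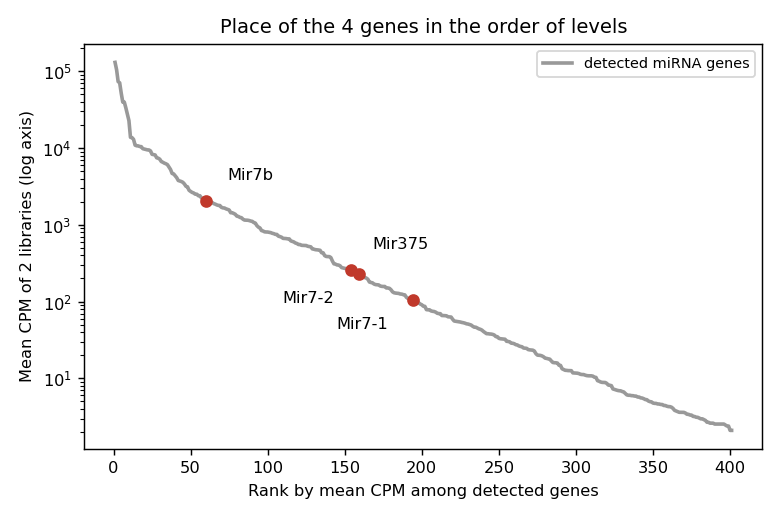
Mean CPM on a log axis of the 401 detected miRNA genes (grey line) against their rank, with the 4 genes in red. Mir7b stands at rank 60 and the other genes at ranks 154, 159 and 194, so Mir7-1 lies near the middle of the order and the others above it.

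The share of placed miR-7 reads taken by Mir7b was nearly equal in the libraries. In replicate 1 Mir7b held 85.8% of 6073 family counts (Wilson 95% interval 84.9 to 86.7). In replicate 2 it held 85.8% of 7206 (85.0 to 86.6). Mir7-2 held 10.1% in replicate 1 (9.38 to 10.9) and 9.39% in replicate 2 (8.74 to 10.1). Mir7-1 held 4.07% (3.60 to 4.59) and 4.76% (4.29 to 5.28). The 3 genes together were at 2363 ± 357 CPM (SD, n = 2), from 2615 CPM for replicate 1 and 2111 CPM for replicate 2.

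Tested against counting error, 3 of the 4 genes differed between the libraries, where 50.9% of the 401 detected genes did. Each gene's counts were tested by the exact binomial test, two-sided, given TMM-scaled library sizes, with Benjamini-Hochberg adjustment over all 401 genes. It compares 2 libraries, not conditions, and passes smaller differences in genes with more counts. The 50.9% mixes genes of all levels, and a share among genes of like level was not taken. Mir7b was 1.26-fold higher in replicate 1 than in replicate 2, a log2 ratio of 0.33 (95% interval 0.28 to 0.39, adjusted exact binomial p = 9.91e-34). Mir7-2 was 1.36-fold higher in replicate 1, a log2 ratio of 0.44 (0.28 to 0.60, adjusted exact binomial p = 1.87e-07). A call in that direction was made for 22.7% of detected genes. Multimapping reads made up 42.6% of replicate 1 and 46.0% of replicate 2. Their part in the differences of Mir7-2 and Mir7-1 was not tested.

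Mir375 was lower in replicate 1, with a log2 ratio of -0.19 (95% interval -0.34 to -0.034, adjusted exact binomial p = 0.0328), a direction called for 28.2% of detected genes. With DESeq2 size factors in place of TMM its adjusted exact binomial p was 0.0849. Mir7-1 did not pass the test, at a log2 ratio of 0.11 (-0.13 to 0.35, adjusted exact binomial p = 0.526).

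The sizes of these differences were set beside those of the other detected genes. The median absolute log2 ratio over the 401 genes was 0.33, a 1.26-fold difference. The absolute ratio of Mir7b exceeded that of 203 detected genes, Mir7-2 that of 261, Mir375 that of 117 and Mir7-1 that of 74. With 1 library on each side, a spread between libraries could be allowed for only by estimating it from the differences under test. With a common dispersion found that way, edgeR's exact test passed none of the 4 genes, called 3 of the 401 (0.748%) and gave 25 an unadjusted p under 0.05. Few calls are built into that design, and they are not evidence that the libraries were alike.

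**Figure D4:**
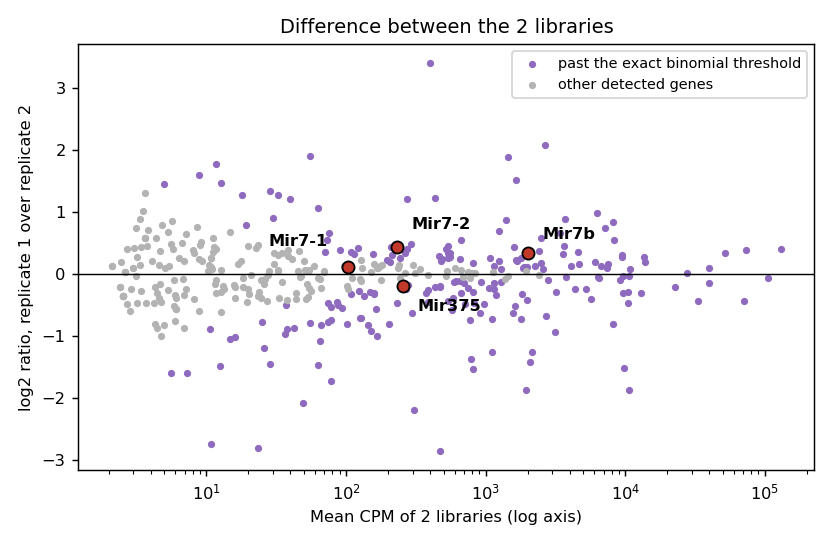
Log2 ratio of replicate 1 over replicate 2 against mean CPM (log axis) for the 401 detected miRNA genes, in purple where the exact binomial test was passed and in grey elsewhere, with the 4 genes in red. Mir7b and Mir7-2 lie above 0, at 0.33 and 0.44, Mir7-1 at 0.11 and Mir375 below 0 at -0.19.

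Ratios of 2 genes within a library do not depend on how that library is scaled. Whether such a ratio differed between the libraries was asked with Fisher's exact test, two-sided, for 6 pairs of genes and after the values had been seen. Mir7b over Mir375 was 1.43-fold higher in replicate 1 than in replicate 2 (adjusted Fisher's exact p = 8.96e-10). Mir375 over Mir7-2 was lower in replicate 1, by an odds ratio of 0.647 (adjusted Fisher's exact p = 5.52e-08). Mir7-2 over Mir7-1 was 1.26-fold higher in replicate 1 (adjusted Fisher's exact p = 0.0437).

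The other 3 pairs did not pass. Mir7b over Mir7-2 had an odds ratio of 0.929 (adjusted Fisher's exact p = 0.216), Mir7b over Mir7-1 one of 1.17 (adjusted p = 0.0820) and Mir375 over Mir7-1 one of 0.815 (adjusted p = 0.0607). Both of the strongest differences set Mir375 against a miR-7 gene, but Mir375 over Mir7-1 did not pass, and the pairs share genes. How many pairs of other detected genes would pass was not counted, while 50.9% of single detected genes passed the binomial test. These calls therefore do not show that Mir375 stood apart from other genes. Like the binomial test, Fisher's exact test covers counting error only. Ratios with Mir7-2 or Mir7-1 also depend on the share of their reads that was placed, which was not measured.

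Markers of other cell types were read beside these differences, and their part in the differences of the 4 genes was not tested. The oligodendrocyte markers, all 3 detected, summed to 4367 CPM for replicate 1 and 2683 CPM for replicate 2. Of that gap Mir219a-2, at 2447 and 865 CPM, made up most, while Mir338 stood at 1911 and 1811 CPM and Mir219a-1 did not pass the binomial test. The endothelial marker Mir126a stood at 14889 and 12474 CPM. The erythrocyte markers, all 3 detected, summed to 1922 and 1149 CPM through Mir451a, at 1807 and 1007 CPM, whereas Mir144 was lower in replicate 1, at 94.7 and 121 CPM, and Mir486 did not pass.

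The neuron markers, 10 of 12 detected, summed to 29467 CPM for replicate 1 and 42754 CPM for replicate 2. Mir128-1, at 4518 and 16906 CPM, made up most of that gap. Of the 10 detected, 2 were higher in replicate 1, 3 were lower and 5 did not pass, and their median log2 ratio was -0.024. The microglia and leukocyte markers (4 of 4 detected) summed to 1260 and 1590 CPM, with Mir150 and Mir142 lower in replicate 1, Mir146 higher and Mir155 not past the test. Mural cell markers (2 of 2) summed to 6456 and 6935 CPM, with both genes lower in replicate 1. Choroid plexus markers (2 of 3) summed to 664 and 808 CPM, with Mir204 lower in replicate 1 and Mir449a not past the test. The hindbrain and spinal cord markers, 2 of 4 detected, were low, at 22.4 and 14.1 CPM, with Mir196a-1 at 0 in both libraries. Among the neuron markers Mir124a-1, Mir124a-2 and Mir124a-3 had 0 to 11 counts each per library. Multimapping reads are left out of these counts, which therefore do not show that miR-124 was scarce. How many such reads came from the multi-locus miR-124 and miR-9 genes was not measured. Nor was it measured for other markers with numbered copies, among them Mir128-1, Mir138-1, Mir218-1, Mir218-2 and Mir219a-2. The gaps given for these markers are gaps of placed reads.

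A list of 18 further miRNA genes known from neuroendocrine, islet, pituitary or secretory cells gave the setting of the 4 genes. Many of its members are also made in neurons or epithelia. It summed to 18759 CPM for replicate 1 and 19077 CPM for replicate 2, and 17 of its genes were detected. Mir132, which is induced by neuronal activity, led it at 10916 ± 278 CPM (SD, n = 2), followed by Mir335 at 3666 ± 777 CPM. Mir7b lay below these 2 genes and above the other 16. The median level of the detected list genes was 129 CPM, against 87.0 CPM for all detected genes.

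Mir375 and Mir7-2 lay below 7 list genes, the lowest of them Mir212, the partner of Mir132, at 277 ± 26.9 CPM. Below them came Mir325 at 157 ± 23.4 CPM and Mir129-1 at 129 ± 45.6 CPM, and Mir7-1 split the list into 9 genes above and 9 below. Genes of the epithelial miR-200 family were lower than Mir375, namely Mir429 at 74.3 ± 17.98 CPM, Mir200c at 63.3 ± 31.1 CPM, Mir200b at 49.5 ± 43.9 CPM, Mir200a at 18.4 ± 2.21 CPM and Mir141 at 3.19 ± 0.365 CPM. The sensory cluster was low as well, with Mir183 at 55.0 ± 44.6 CPM, Mir182 at 32.3 ± 18.8 CPM and Mir96 with 2 counts and 1 count. Mir184, which is known from islet cells and epithelia, was at 54.2 ± 1.28 CPM. The remaining list genes were Mir376a at 1120 ± 400 CPM, Mir129-2 at 831 ± 199 CPM, Mir153 at 806 ± 560 CPM and Mir204 at 664 ± 105 CPM.

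Of the 17 list genes tested, 6 were higher and 8 lower in replicate 1 by the exact binomial test, and 3 did not pass. Over all 401 genes 22.7% were called higher and 28.2% lower. The median log2 ratio of the 17 list genes was -0.17, against -0.031 over all 401 genes. The widest differences were those of Mir200b, which was 4.23-fold lower in replicate 1 than in replicate 2, and Mir183, which was 3.74-fold higher. Mir7b, Mir7-2, Mir375 and Mir7-1 each differed by less than these.

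**Figure D5:**
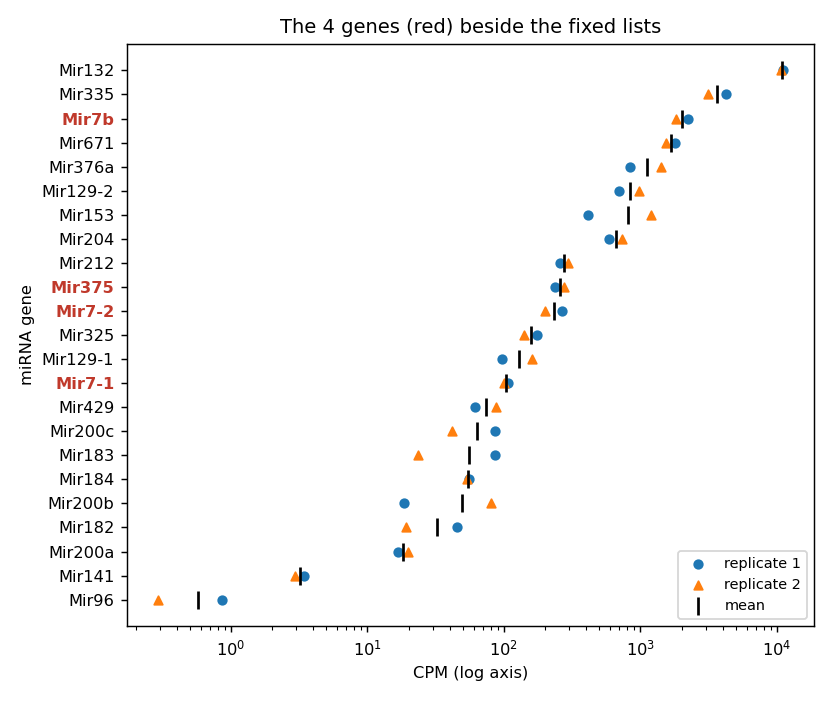
CPM on a log axis in replicate 1 (blue circles) and replicate 2 (orange triangles), with the mean as a black tick, of the 4 genes (red names), the 18 genes of the neuroendocrine list and Mir671. Mir7b lies just above Mir671, and Mir375 and Mir7-2 lie between Mir212 and Mir325.

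The exocrine pancreas list, Mir216a, Mir216b, Mir216c and Mir217, had none of 4 genes detected. Mir217 had 3 counts in replicate 1 and 0 in replicate 2, and the others had 0 in both. Mir375, known from the endocrine part of the same organ, was thus measured in libraries in which the exocrine list was at or under that limit of 3 counts.

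Mir671, which lies in the miR-7 circuit through Cdr1as, was close to Mir7b in level. It had 4127 counts in replicate 1 and 5287 in replicate 2, or 1777 and 1549 CPM, and was 1.17-fold higher in replicate 1 (adjusted exact binomial p = 4.54e-13). Mir7b, Mir7-2 and Mir671 thus shared the direction of their difference, and 22.7% of detected genes were called in that direction. Cdr1as and Cyrano themselves are not miRNA genes and were not measured by these tables.

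The sequences of the circuit's long RNAs were searched for the match to the shared miR-7 seed, GUCUUCC, as a description of the reference and not of these libraries. The longest GENCODE transcript of C230004F18Rik, the gene RefSeq calls Cdr1os with the synonym Cdr1as, held 125 matches over 19658 bases, the most of the 13374 long noncoding genes searched. The opposite strand held none. Over all those genes, 12.8% held at least 1 match on the transcript strand.

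The longest transcript of 1700020I14Rik, which RefSeq lists as Oip5os1 with the synonym Cyrano, held 2 matches over 8300 bases. The stretch around the one with the longer further match to miR-7, on chromosome 2, is shown from the GENCODE transcript. Capitals mark the seed match and the longest perfect match to the rest of miR-7a-5p.
1700020I14Rik site: ACAACAAAAUCACcaauGUCUUCCa
At this site the match outside the seed covered bases 11 to 23 of miR-7a-5p and bases 11 to 24 of miR-7b-5p, and left out base 10, at which they differ. At the other site the longest such match had 3 bases, bases 10 to 12 of miR-7a-5p and bases 12 to 14 of miR-7b-5p. A match of letters is not shown to be a working site here.

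With 2 libraries no likeness of pattern across conditions could be measured, so genes were compared by their distance in log2(CPM + 1) over both libraries. Mir7b was nearest to Mir181d (distance 0.16), Mir342 (0.20) and Mir1839 (0.21). Mir375 was nearest to Mir384 (0.096), Mir669c (0.12) and Mir877 (0.16). Mir7-2 was nearest to Mir1981 (0.17), Mir350 (0.18) and Mir339 (0.20), and Mir7-1 to Mir9-3 (0.14), Mir495 (0.17) and Mir331 (0.20).

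In the order of mean level, Mir7b stood between Mir128-2 at 2073 ± 1358 CPM and Mir181d at 1995 ± 80.7 CPM. Mir375 stood between Mir877 at 263 CPM in both libraries and Mir669c at 246 ± 9.86 CPM, and Mir7-2 between Mir20a at 234 ± 7.73 CPM and Mir186 at 231 ± 55.8 CPM. Mir7-1 stood between Mir144 at 108 ± 18.6 CPM and Mir3072 at 103 ± 13.2 CPM. Each of these gaps was smaller than the spread between the libraries of at least 1 of the 2 genes.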

How the data were processed

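Small RNA libraries of 2 hippocampus samples were analysed, in 1 group with replicate numbers from the labels. The authors deposited raw whole-number counts of reads per miRNA gene, not normalized. Per the labels the fragments were under 30 nt and the assembly was mm10, and the submitters' file lists name annotation M21. Which aligner and counting program were run is not given in the sources used here. The same-strand column was used. The 4 rows that name no gene (unmapped 16.2% and 15.1% of reads in replicates 1 and 2, multimapping 42.6% and 46.0%, no feature 5.16% and 4.70%, ambiguous 0%) were left out of library sizes and tests. Reads of CAST/EiJ alleles were not separated, and the effect of mapping them to mm10 was not tested.

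CPM were counts scaled to 1000000 per library over all miRNA genes. Ratios used 0.5 added to each count. The exact binomial test used SciPy 1.17.1 with TMM factors of 0.991 and 1.01 from edgeR 4.0.16 (R 4.3.3), adjusted p below 0.05 counting as a call. It was tested on data simulated with counting error only, so its behaviour under a spread between libraries was not shown. With 1 group, edgeR's quasi-likelihood test had no contrast. Alternatives used DESeq2 1.42.0 size factors and edgeR's exact test with the common dispersion (biological coefficient of variation 29.9%). Hairpins were folded with RNAfold 2.7.2. The genes, lists and tests were chosen with earlier results of these data known. Named genes were the 4 genes, the list genes, the 3 genes nearest to each in level and its neighbours in rank. Cell type markers are given as sums, with single markers named after their values were seen.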

Additional observations from a re-analysis of the deposited data

How the results depend on the processing

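CPM depend on the denominator. With all reads of a library in it, the means were 714 CPM for Mir7b, 89.8 for Mir375, 81.5 for Mir7-2, 36.3 for Mir7-1, 6637 for the neuroendocrine list and 585 for Mir671. Without the 5 most abundant genes they were 3583, 451, 409, 182, 33299 and 2934 CPM. With the unstranded column Mir7-1 was at 112 CPM and the neuroendocrine list at 18322 CPM, and with DESeq2 size factors that list was at 18572 CPM. TMM scaling moved no level by more than its SD. Adding 1 to each count left Mir7b with 85.8% of family counts. Every ratio between the 4 genes kept its side of the 2 SD rule with 0 or 1 added and per hairpin length. The unstranded column could not change these ratios, since none of the 4 genes had opposite-strand reads. Leaving out a replicate gave Mir375 over Mir7-2 a log2 ratio of -0.15 or 0.47. The exact binomial test called 184 to 223 genes under the other scalings, filters and strand column, and 204 as reported, and edgeR's exact test called 3. With no filter on low counts the binomial test called 29.4% (210 of 715), against 50.9% of 401 as reported. Under its other settings the share was 47.9% to 51.1%. Of 120 values recomputed, 99 kept their call or moved by less than their spread. Some of these could not do otherwise, because leaving out 1 of 2 replicates always moves a mean by less than its SD. The unstranded ratios and family share were fixed too, as the counts were identical. No called ratio or difference changed sign. The ratio of Mir375 to Mir7-2, which was not called, did so without replicate 2. Depth limits Mir7-1 most, whose interval spans 93.9 to 120 CPM in replicate 1. No paired analysis was possible because there was 1 group.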
